A study of Homo sapiens with 6 samples.

Results

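ATG5 is the gene of an autophagy protein that is conjugated to ATG12, and it was represented on the splicing-sensitive array by 101 of the 45220 features in the table. All 101 carried the symbol ATG5 in the platform annotation and matched the gene by transcript accession, and none was shared with another gene. A feature is 1 probe position of the array, and it is called here by its number in the table. The annotation used here gives neither the probe sequence nor the exon or junction a feature covers, so features are described by their values alone. ATG5 was chosen by its values, the log2 ratios of its features and their departures from each other. Of 33992 departures in the series, that of feature 14787 was the largest in size. The log2 ratios and departures of ATG5 after UV light irradiation are therefore a description. Where limma calls on them are counted, the count stands beside the share of all features called and is not a test of ATG5.

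The cells were Hep3B, an established human line from a liver carcinoma in which p53 is not expressed. One sample of each pair had received UV light at 10 J/m2, with RNA taken after 6 hours, and the other was untreated. Each of 3 biological replicates was hybridized on 2 arrays, a direct one with the irradiated sample in Cy5 and a dye-swap one with the irradiated sample in Cy3. All values are log2 ratios of UV over untreated cells. This direction is not written in the table: it was taken from the dyes of the direct arrays, and the dye-swap columns correlated above 0 with them (r from 0.538 to 0.663 over all features) and so had been turned already. The table gave 36532 to 38392 features per array with a value, array medians from -0.01 to 0.01, and no signal intensities, so the level of ATG5 itself is not given and a shift shared by every transcript could not be seen. The cell type could not be checked, since 0 of 12 liver marker genes on a fixed list had a named feature among those used here.

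Autophagy is the route by which cells enclose cytoplasm in a double membrane and deliver it to the lysosome. ATG12 is joined to ATG5 by the E1-like enzyme ATG7 and the E2-like enzyme ATG10, and the ATG12-ATG5 conjugate with ATG16L1 directs the attachment of LC3 to lipid on the growing membrane. ATG5 has also been linked to cell death, as a partner of the adaptor FADD and, once cleaved by calpain, as an inhibitor of BCL2L1.

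Averaged over its features, ATG5 was lower in irradiated than in untreated cells in every replicate and on every array. The gene mean was -0.75 in replicate 1, -0.64 in replicate 2 and -0.73 in replicate 3, or -0.71 ± 0.057 (SD, n = 3), which is 1.63-fold lower. On the direct arrays the mean over features was -0.81, -0.67 and -0.74 in replicates 1, 2 and 3, and on the dye-swap arrays it was -0.69, -0.61 and -0.71. Replicate 2 thus had the smallest fall in both orientations, and no array lay near 0. The difference between the orientations, taken as 0.5 of direct minus dye-swap, was -0.037 for the gene mean (SE 0.015, n = 3). It did not pass (adjusted p = 0.107 by limma), and it passed for 51.9% of all 775 genes. The columns of both orientations were in view when the gene was chosen. With 3 replicates, a difference that did not pass is not read as agreement of the dyes. Of the 466 genes with 3 or more features, 8 had a lower gene mean than ATG5, and the median of these genes was 0.0057.

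The gene mean joined features that differed widely. Both orientations of at least 2 replicates were needed for a feature to enter the comparison, and 79 ATG5 features had them. Their mean log2 ratios ran from -2.93 to 0.032, with a median of -0.83 and quartiles of -1.13 and -0.30. Of the 79, 29 were past 2-fold lower (36.7%, against 1.72% of all 34301 features tested), 27 lay between 1.3-fold and 2-fold lower, and 23 were within 1.3-fold (29.1%, against 86% of all features). No ATG5 feature was past 1.3-fold higher, as 2.32% of all features were. Taken in order of their means, the features followed each other closely except at 2 places: below rank 1, where the gap was 1.55, and after rank 47, where it was 0.203, from -0.74 to -0.54.

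Counted by limma calls at an adjusted p of 0.05, from the contrast with which the gene was chosen and so with nothing read from them, 69 of the 79 features were called lower (28.2% of all features were) and 0 higher (26.3%). At an unadjusted p under 0.05 the number called higher was also 0, as it was with a robust prior. On the direct arrays alone 1 feature was called higher, and on the dye-swap arrays alone 3 were.

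**Figure D1:**
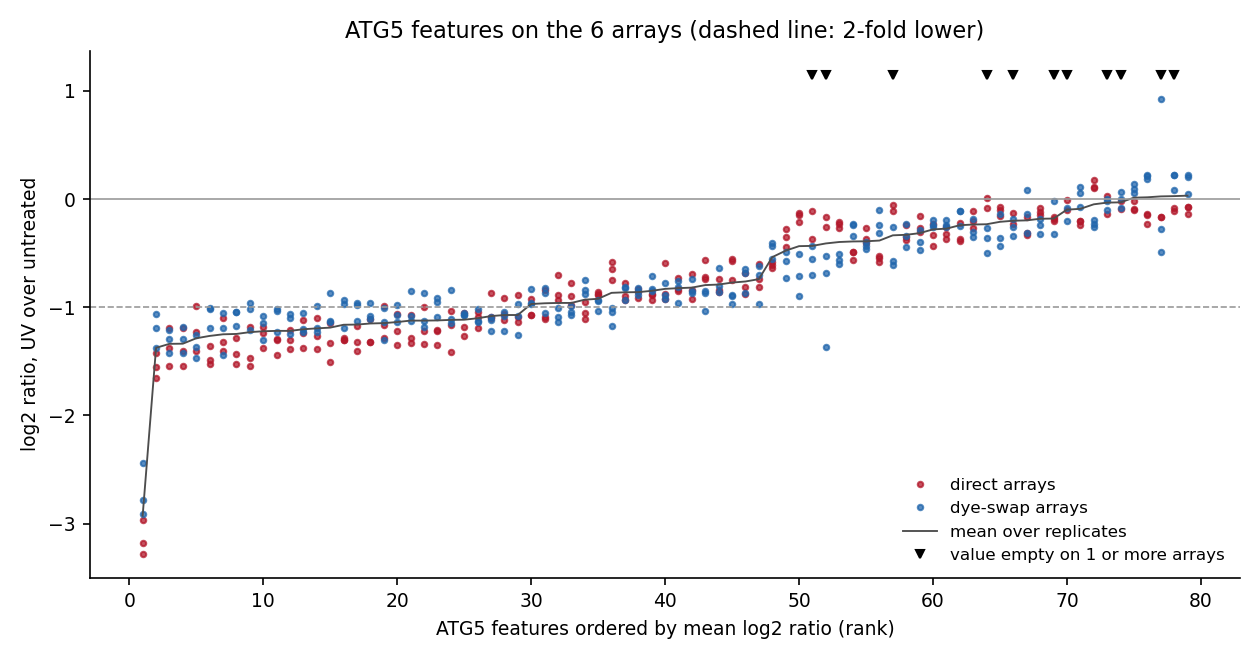
Log2 ratios of UV over untreated cells (vertical axis) of the 79 ATG5 features with at least 2 replicates, ordered by their mean (horizontal axis). Red points are the 3 direct arrays, blue points the 3 dye-swap arrays, the line is the mean over replicates and triangles mark the 11 features with an empty value on 1 or more arrays. Feature 14787 stands alone near -2.93, ranks 2 to 47 run from -1.38 to -0.74, and the features with empty values all lie beyond rank 47.

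Feature 14787 had the lowest ratio of ATG5 on all 6 arrays. Its log2 ratio was -3.28, -2.97 and -3.18 on the direct arrays of replicates 1, 2 and 3, and -2.44, -2.78 and -2.91 on their dye-swap arrays. The mean was -2.93 ± 0.10 (SD, n = 3), which is 7.6-fold lower. It was below the next lowest ATG5 value of the same array by 1.07 to 1.63. On each direct array it had the lowest value of the whole table, and by its mean it was the third lowest of the 34301 features tested. Against the mean of the other ATG5 features of the same array its departure was -2.25 ± 0.10 (SD, n = 3), where direct arrays averaged -2.43 and dye-swap arrays -2.07. Without this feature the gene mean was -0.68, in place of -0.71, and the SD of the feature means was 0.448, in place of 0.51.

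The means of the 28 other features past 2-fold lower ran from -1.38 to -1.07, with a median replicate SD of 0.10 among the 29 features past 2-fold. The 2-fold limit set the upper edge of this range, and the next feature lay at -0.97. Feature 31263 followed feature 14787, with -1.65, -1.42 and -1.55 on the direct arrays and -1.19, -1.06 and -1.38 on the dye-swap arrays (mean -1.38 ± 0.12, SD, n = 3). Feature 36248 read -1.54, -1.19 and -1.38 on the direct arrays and -1.29, -1.21 and -1.42 on the dye-swap arrays. Feature 10184 gave the same values within 0.03 on every array, at -1.54, -1.19 and -1.40 on direct arrays and -1.29, -1.18 and -1.42 on dye-swap arrays. Among the 2278 pairs of the 68 features with a value on every array, 2 pairs agreed within 0.05 on all arrays, the other being features 31598 and 32369. Whether such pairs hold the same or overlapping sequence is not given in the annotation used here, and the features of ATG5 are not counted as independent measurements.

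At the other end were features near 0. Feature 3549 had -0.07, -0.14 and -0.07 on the direct arrays and 0.05, 0.22 and 0.20 on the dye-swap arrays (mean 0.032 ± 0.038, SD, n = 3). Feature 5403 had -0.23, -0.14 and -0.15 on the direct arrays and 0.19, 0.22 and 0.21 on the dye-swap arrays (mean 0.017 ± 0.032). Feature 23182 had -0.02, -0.10 and -0.09 on the direct arrays and 0.14, 0.09 and 0.06 on the dye-swap arrays (mean 0.013 ± 0.041). These 3 features were thus below 0 on each direct array and above 0 on each dye-swap array, and their means were smaller than the difference between the orientations. Only 5 of the 79 features had a mean above 0, and 68 were below 0 on every array on which they had a value. Feature 19081 also had a mean above 0, but this rested on 1 array: it read -0.17 on the direct arrays of replicates 2 and 3, and -0.28, -0.49 and 0.93 on the dye-swap arrays of replicates 1, 2 and 3.

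For each array, the departure of a feature was taken as its log2 ratio less the mean log2 ratio of the remaining ATG5 features. By size alone, 15 of the 79 features were past 1.4-fold below the rest and 15 past 1.4-fold above it, and the other 49 lay between. All 30 were also called by limma at an adjusted p of 0.05, 19% of the 79 in each direction, where 2.16% (lower) and 1.76% (higher) of the 33992 features of genes with 3 or more features passed both conditions. As the departures served in the choice of the gene, nothing is read from these calls.

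The features past 1.4-fold below the rest had means from -2.93 to -1.19 and departures from -2.25 to -0.49, and all had a value on all 6 arrays. After features 14787, 31263, 36248 and 10184 the lowest departures were those of feature 32687 (-0.59 ± 0.086, SD, n = 3) and feature 37309 (-0.57 ± 0.064). Only feature 14787 was past 2-fold, and no other departure was below -0.68.

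The features past 1.4-fold above the rest had log2 ratios near 0 or slightly below it. Their means ran from -0.21 to 0.032, all 15 within 1.3-fold, and their departures from 0.50 to 0.77. The highest departures were those of feature 40979 (0.77 ± 0.024, SD, n = 2), feature 3549 (0.75 ± 0.056, n = 3), feature 5403 (0.73 ± 0.039) and feature 23182 (0.73 ± 0.088). Feature 19081 (0.72 ± 0.57, n = 2) and feature 33896 (0.71 ± 0.069, n = 2) came next. Of these 15 features 7 had an empty value on at least 1 array. On every array with a value, departures were past 1.4-fold for 3 features below the rest (14787, 36248 and 10184) and 7 above it (40979, 3549, 5403, 23182, 33896, 42901 and 28894).

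The number called lower differed with what a feature was set against. Shares of all features called are not given for these alternatives, so nothing further is read from them. With the median of the other features in place of their mean, 5 features were called lower and 20 higher, and among features with a value on all 6 arrays 4 and 14 were. Leaving out replicate 1 left 13 called lower and 9 higher, leaving out replicate 2 left 17 and 14, and leaving out replicate 3 left 13 and 8. The departure of feature 14787 was the lowest in each of 9 alternatives, from -2.43 to -2.07. The feature was singled out by this departure on the same arrays, so its place in the alternatives is not support for it. Centring each array and the replicate block could not change its value.

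**Figure D2:**
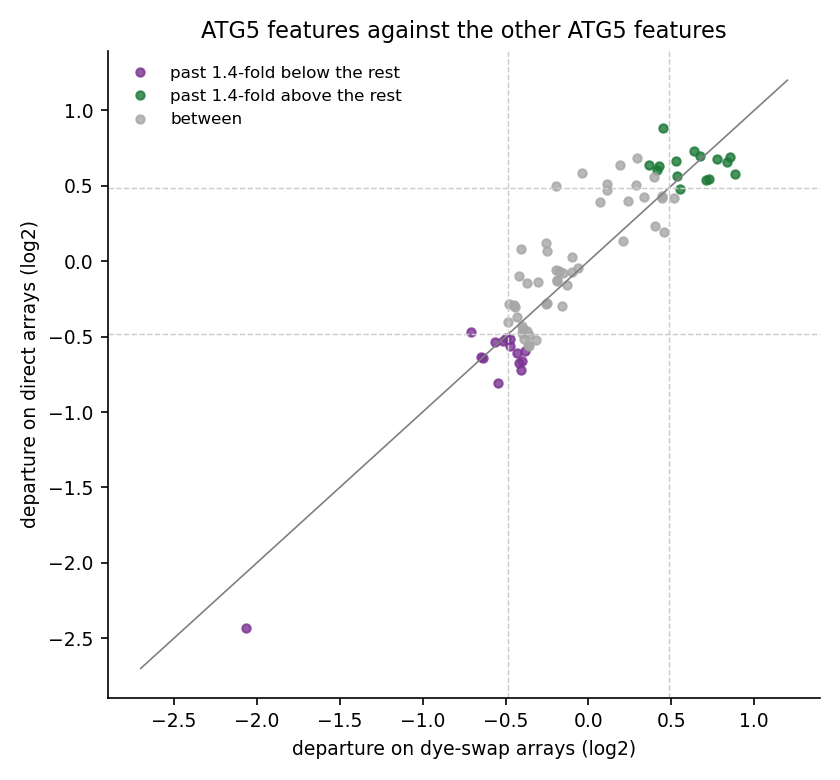
Departure of each of the 79 ATG5 features from the mean of the other ATG5 features on the same array, with the mean of the direct arrays on the vertical axis and of the dye-swap arrays on the horizontal axis, both in log2 units. By their mean over replicates, purple points lie past 1.4-fold below the rest, green points past 1.4-fold above it and grey points between, dashed lines mark 1.4-fold and the diagonal marks equal values. Feature 14787 lies at -2.43 and -2.07, apart from the other 78 features.

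The log2 ratios of the features were correlated between all arrays. Over ATG5 features, arrays of the same orientation correlated at 0.985 to 0.992 (direct) and 0.924 to 0.941 (dye-swap), and arrays of different orientations at 0.867 to 0.941. Without feature 14787 the last range was 0.832 to 0.929. Over all features of the table arrays of different orientations correlated at 0.538 to 0.663. These correlations are across features of shared hybridizations, which are not independent. ATG5 was also chosen by the departures of its features, and a wide spread raises such correlations. The values for ATG5 and for all features are therefore not compared. In the 68 features with all 3 replicates, 32 were past 2-fold lower in replicate 1, 22 in replicate 2 and 32 in replicate 3.

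Single features did differ between the orientations. By limma on 0.5 of the difference between the direct and dye-swap arrays of each replicate, 33 of 79 ATG5 features passed an adjusted p of 0.05 (41.8%, against 48.6% of all 34301 features). Of these 21 were lower on the direct arrays (26.6%, against 22.3%) and 12 were higher on them (15.2%, against 26.3%). The features lower on the direct arrays included feature 37309, with -1.49, -1.36 and -1.52 on the direct arrays against -1.01, -1.02 and -1.19 on the dye-swap arrays (adjusted p = 0.00409, n = 3). Feature 21008 had the widest difference the other way, with -0.21, -0.13 and -0.15 on the direct arrays against -0.51, -0.90 and -0.71 on the dye-swap arrays (difference 0.54, adjusted p = 0.00798, n = 3). For feature 14787 the direct arrays were lower by a log2 difference of -0.43 (adjusted p = 0.0441, n = 3), and in both orientations it was the lowest ATG5 feature.

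Over the 79 features the median difference, direct minus dye-swap, was -0.057, with a range from -0.43 to 0.54. It exceeded 0.3 in size in 16 features and 0.5 in 2. The departures differed between orientations in 35 of 79 features (44.3%, against 47.5% of the 33992), among them 7 of the 15 past 1.4-fold below the rest and 5 of the 15 above it. No departure past 1.4-fold had opposite signs in the orientations, but this follows largely from grouping by the mean of both and is not read as agreement. Without replicate 1, 13 of 74 ATG5 features passed as lower on the direct arrays and 16 as higher. The shares of all features in this setting are not given, so nothing is read from these counts. Without replicate 2 or without replicate 3, 0 ATG5 features passed for the difference of the log2 ratios. At an unadjusted p under 0.05 the features lower and higher on the direct arrays then numbered 13 and 5 without replicate 2 and 19 and 5 without replicate 3, and 0% of all features passed in either case.

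Empty values went with ratios near 0. The table left 17.8% to 21.8% of ATG5 features empty on the direct arrays and 6.93% to 18.8% on the dye-swap arrays, against 9.8% to 13.1% and 8.71% to 12.2% of all named features. The 68 tested features with a value on all 6 arrays had a median of -0.93 (range -2.93 to 0.032), whereas the 11 with an empty value had a median of -0.18 (range -0.43 to 0.028). Past 1.3-fold lower were 54 of the 68 and 2 of the 11. The remaining 22 ATG5 features were not tested: 7 had 1 replicate with both orientations, 15 had none and 2 of these had no value on any array. Their 45 single values lay between -0.30 and 0.40, with a median of -0.12. None of them was thus near the band from -1.38 to -0.74 that held ranks 2 to 47.

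The same held in most other genes that fell. Among the 27 genes with a gene mean past 1.3-fold lower and at least 3 features of each kind, the features with an empty value had a median nearer 0 in 25, ATG5 included. The median over genes was -0.069 for features with an empty value and -0.61 for complete ones. The reason for empty values is not stated in the sources read, and its part in these ratios was not tested. With complete features alone the gene mean of ATG5 was -0.84, and with the median over features it was -0.79.

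The spread among ATG5 features was wide for this array, but not the widest. The SD of feature means within the gene was 0.51, the 11th highest of 466 genes, whose median was 0.135 with quartiles of 0.0993 and 0.222. The span between the lowest and highest feature was 2.96, the third widest. All of the 20 genes with the widest spread had a gene mean below 0, where the median gene mean of the 466 was 0.0057. As ATG5 was chosen by the departures of its features, its rank in spread is not a finding.

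The genes closest to ATG5 were found by the root mean square difference of gene means over the 6 arrays, among 465 genes with 3 or more features. AURKA, a mitotic kinase, was closest (difference 0.028), followed by TRAF6, a ubiquitin ligase of NF-kB signalling (0.042), CDK1, the cyclin-dependent kinase of mitosis (0.072), FADD, the adaptor of death receptors (0.090), and PDCD10 (0.0996). Their mean log2 ratios were -0.70 ± 0.035 for AURKA, -0.67 ± 0.033 for TRAF6, -0.64 ± 0.072 for CDK1, -0.73 ± 0.040 for FADD and -0.61 ± 0.051 for PDCD10 (SD, n = 3). Except for PDCD10, these means lay within the range of the ATG5 replicates, -0.75 to -0.64, to 2 decimals. Closeness of level was the rule by which they were chosen and is not a finding.

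Within these genes the features were spread in different ways. The SD was 0.70 in AURKA, 0.63 in TRAF6, 0.36 in CDK1, 0.70 in FADD and 0.57 in PDCD10, against 0.51 in ATG5. The range between the quartiles of ATG5 features, -1.13 to -0.30, was narrower than that of AURKA (-1.24 to -0.10), TRAF6 (-1.29 to -0.056), FADD (-1.38 to 0.03) or PDCD10 (-1.21 to -0.15), and wider than that of CDK1 (-1.02 to -0.38). The lowest feature was -2.93 in ATG5, -2.40 in AURKA, -2.32 in TRAF6, -1.15 in CDK1, -1.63 in FADD and -1.72 in PDCD10. The highest feature of ATG5, 0.032, was above that of CDK1 (-0.0083) and below those of AURKA (0.32), TRAF6 (0.21), FADD (0.25) and PDCD10 (0.32).

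**Figure D3:**
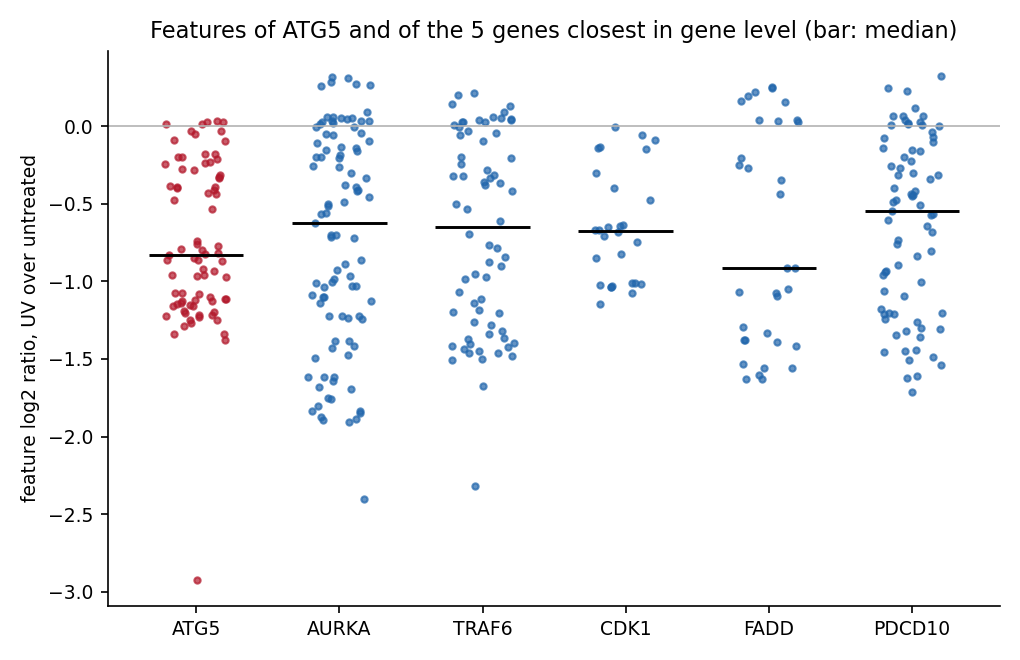
Mean log2 ratio of UV over untreated cells (vertical axis) of each tested feature of ATG5 (red) and of the 5 genes closest to it in gene level (blue), with the median as a bar and points spread sideways for clarity. ATG5 has 1 feature at -2.93, below a band that starts at -1.38, and its features near 0 reach 0.032.

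Few other genes of autophagy could be examined. Of 43 further genes of the core machinery on the list used here, 1 had named features in the table, RB1CC1. RB1CC1, also called FIP200, is a scaffold of the ULK1 kinase complex that starts autophagosome formation. Its gene mean was -0.325, -0.302 and -0.269 on the direct arrays and -0.271, -0.249 and -0.298 on the dye-swap arrays of replicates 1, 2 and 3, below 0 throughout. It fell by 0.29 on the log2 scale (SD 0.012, n = 3, 1.22-fold lower, adjusted p = 0.000472 by limma, 103 features). ATG12, ATG7, ATG10 and ATG16L1, with which ATG5 acts, were not analysed here.

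Of 61 listed regulators of autophagy and partners of ATG5 or Beclin 1, 19 were measured, of which 11 fell, 4 rose and 4 did not pass (5 of the 19 had 1 feature). With RB1CC1 this gave 12 falls and 4 rises among 20 genes, where 41.4% of all genes fell and 30.3% rose (71.7% in either direction). The lists were drawn up with earlier results of these data known. FADD and TRAF6, among the falls, were also chosen above for their level. The counts are therefore a description and not a test of autophagy genes as a set. The median log2 ratio of the 20 was -0.14, and that of all genes was -0.027.

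Among those that fell, MCL1, an antiapoptotic protein that binds Beclin 1, had the lowest mean, with -1.26, -1.21 and -1.25 in replicates 1, 2 and 3. FADD, whose product binds ATG5, had -0.69, -0.77 and -0.72 (adjusted p = 0.00013, 1.65-fold lower). MYC, a transcription factor, had -0.70, -0.71 and -0.70 (adjusted p = 8.52e-05). TRAF6, which ubiquitinates Beclin 1, had -0.69, -0.64 and -0.69 (adjusted p = 0.00013). All 3 replicates of FADD, MYC and TRAF6 thus lay beside those of ATG5, while those of MCL1 lay lower. FADD and TRAF6 were among the genes chosen above for closeness in level to ATG5, so for them this is not a finding. BCL2L1, the target of cleaved ATG5, fell by less, with -0.21, -0.40 and -0.29 (adjusted p = 0.00525, n = 3 by limma).

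Those that rose did so by under 1.2-fold. TP73, a relative of p53, had 0.21, 0.11 and 0.23 in replicates 1, 2 and 3 (1.13-fold higher, adjusted p = 0.00825). BCL2, which holds Beclin 1 inactive, had 0.17, 0.12 and 0.19 (1.12-fold higher, adjusted p = 0.00393). BAD, a proapoptotic protein of the same family, had 0.17, 0.068 and 0.13 (adjusted p = 0.0161), and BCL2L2 had 0.11, 0.029 and 0.080 (adjusted p = 0.0484). No rise passed without replicate 3, where 2 genes rose at an unadjusted p under 0.05 by limma. Without replicate 1 the calls of BAD and BCL2L2 were lost, and so were those of PDCD6IP and MAPK8 among the falls.

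The falls of RB1CC1, MCL1, FADD, MYC, TRAF6, PDCD6, FOXO3 and BCL2L1 passed without each replicate in turn and in each dye orientation alone. Those of BID, TRAF2, PDCD6IP and MAPK8 did not pass without replicate 3. MAPK8 was called with opposite signs in the 2 orientations, at -0.22 on direct arrays and 0.089 on dye-swap arrays.

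**Figure D4:**
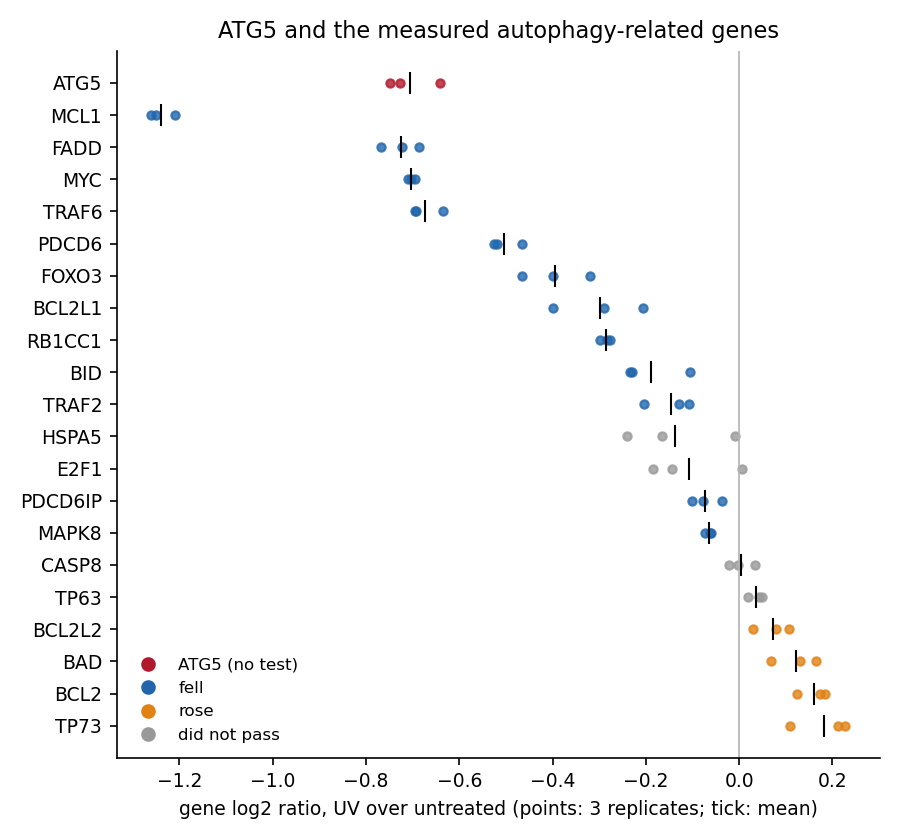
Gene mean of the log2 ratio of UV over untreated cells (horizontal axis) in each of 3 replicates (points) with their mean (tick) for ATG5 and the 20 measured genes of the autophagy lists. Blue genes fell and orange genes rose at an adjusted p of 0.05, grey genes did not pass and ATG5 is shown without a test. ATG5, FADD, MYC and TRAF6 lie between -0.77 and -0.64, MCL1 lies below them, and the 4 rises stay under 0.23.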

How the data were processed

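Irradiated and untreated Hep3B cells were set against each other on 6 arrays with 2 dyes. The authors corrected background with normexp and normalized by LOWESS, and the deposited values were log2 ratios with 1 column per array. The genome build of the array was not stated in the sources read, so no coordinates are printed. Sign and scale were taken from dyes and methods.

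A RefSeq table (GRCh38.p14) updated feature names: 38971 features matched through their accession, 978 through the symbol and 197 through a synonym, and 5074 had no name. Gene values were means over features on each array. The titles pair 1 direct with 1 dye-swap array, and each such pair gave 1 replicate value. As a check, deviations of same-numbered arrays correlated at -0.0070, 0.452 and 0.101. A limma 3.58.1 fit (R 4.3.3) with an intercept alone was run over all 775 genes, 34301 features or 33992 departures, two-sided, with Benjamini-Hochberg adjustment. SEs are moderated by limma. Replicates are biological per the labels, and the number of arrays limits precision.

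Members, lists and rules were chosen with earlier results of these data known. Named were the 6 lowest and 6 highest ATG5 departures, those past 1.4-fold on all arrays, the list members and the 5 closest genes. The choice of features 21008, 31598 and 32369 followed from their values. The fits were tested on simulated data. Alternatives covered dye orientation, replicates, block, scaling, empty values, gene summary, reference of the departure, fold and prior.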

Additional observations from a re-analysis of the deposited data

Results flagged for a closer look

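Among the 12 ATG5 features named by their departure, 7 differed between direct and dye-swap arrays by limma on the half-difference (adjusted p under 0.05). For feature 40979 n was 2, and for the others it was 3. Of all features tested, 48.6% differed and 22.3% were lower on the direct arrays. All 7 were lower on the direct arrays. The difference, direct minus dye-swap, was -0.433 for feature 14787, -0.33 for feature 31263 and -0.383 for feature 37309, which were below 0 in both orientations. It was -0.38 for feature 5403, -0.25 for feature 3549, -0.245 for feature 40979 and -0.167 for feature 23182, which were below 0 in direct and above 0 in dye-swap hybridizations. These differences did not pass without replicate 2 or without replicate 3. In the latter setting feature 40979 had too few replicates to be tested. Over all ATG5 features tested without replicate 1, 13 passed as lower on the direct arrays and 16 as higher. No share of all features is given beside these counts, so nothing is read from them.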

How the results depend on the processing

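Of 137 values recomputed under the alternatives, 102 stayed within the limits set for them, 1.5 times for a count or rank, 1 replicate SD for a log2 value or spread, and the same side of an adjusted p of 0.05 for the orientation difference of the gene mean. Some of the 102 could not move, since centring an array leaves the departures as they were. The number is therefore not a measure of robustness. No log2 value among the 137 changed sign. The gene mean of ATG5 lay from -0.737 to -0.684 with a replicate left out, and moved to -0.838 with complete features alone and to -0.789 with the median over features. Features called lower lay from 60 (of 69 tested, without replicate 3) to 72 (of 90, on the dye-swap arrays alone) in every alternative run. Shares of all features called are not given for the alternatives, so nothing is read from their call counts. Features called higher numbered 1 with direct arrays alone and 3 with dye-swap arrays alone. Departures called lower numbered 9 on the dye-swap arrays alone, 4 with complete features, 5 against the median of the others and 1 at 2-fold, and those called higher 23 on the direct arrays alone and 0 at 2-fold, where 0 also passed at an unadjusted p by limma. With a replicate left out, departures called higher numbered 8 to 14 and rises among autophagy genes 0 to 5. Departures that differed between orientations then numbered 14 to 37. Features lower and higher on the direct arrays numbered 13 and 16 without replicate 1, against 21 and 12 with all replicates. Both numbered 0 without replicate 2 and without replicate 3. The SD among features was 0.557 on the direct arrays alone, and 0.581 as a median absolute deviation. With the replicate block, 70 features were called lower, 15 departures each way, and 11 autophagy genes fell and 5 rose. The block used the same replicate numbers, so the pairing itself was not tested. The correlation within blocks was -0.506 for genes, -0.553 for features and -0.58 for departures. That fit had no dye term and each block held both orientations. The values therefore include the difference between orientations and do not describe the pairing alone. Without signal intensities, no filter on dim features was run.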
